A study of Mus musculus with 71 samples.

Results

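Whole blood RNA of mice given repeated skin injections of HOCl was compared with that of control mice, across all genes. The mice were chosen by their group label alone, and 23 of the 71 mice of the study are used: 11 control mice and 12 HOCl mice. All were female BALB/c AnNRj mice, 6 weeks old when they entered the study, and blood was taken at its end. The HOCl mice received intradermal injections into the shaved back of phosphate buffer in which bleach generates hypochlorous acid. The control mice received phosphate-buffered saline, and the study's methods do not state its route or schedule. The oxidant and its buffer therefore cannot be told apart. The groups were housed in separate cages, so cage and treatment cannot be told apart either. No mouse of these groups received an antibody. The deposited genotype field reads HOCL for control mice too, and the groups here follow the sample titles and column names.

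The study's methods describe CO2 anaesthesia, cervical dislocation and bronchoalveolar lavage, and then the taking of terminal blood. They do not state the site of sampling or its order among these steps. Blood went into a preservative that fixes the RNA of all blood cells. Libraries were made from polyadenylated RNA after globin depletion. Each mouse gave 1 library. The total count ran from 11932855 in HOCl replicate 8 to 15861471 in Control replicate 5. Raw counts exist for all 23 mice. The authors' variance-stabilized values, here called vst, are on a log2-like scale and exist for 11 mice of each group, since HOCl replicate 8 has no column. No control mouse carries the replicate number 3.

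Repeated HOCl injection is used as a mouse model of systemic sclerosis, a disease with fibrosis of skin and internal organs, vascular injury and autoantibodies. HOCl is an oxidant that neutrophils make with myeloperoxidase, and cells meet such oxidants with catalase, peroxiredoxins, glutathione synthesis and the genes that the factor NRF2 controls. Whole blood RNA comes from leukocytes, from platelets and from reticulocytes, the young red cells that have lost their nucleus but still hold RNA, while a raised interferon signature is well known in the blood of patients with this disease.

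Before any single gene is compared, the libraries differed in how their counts were spread. The genes of 5 red cell lists, 77 in all, took from 6.38% to 18.2% of the counts of the control mice, with a median of 11.9%, and from 12.9% to 26.4% of the counts of the HOCl mice, with a median of 18.4%. Of the 12 HOCl mice, 8 lay above every control mouse and 4 lay within the control range. At the high ends stood Control replicate 12 and HOCl replicate 7, and at the low ends Control replicates 7 and 2 and HOCl replicate 1. The 100 most abundant genes of each library took 44.8% ± 7.06 of the counts of control mice and 54.6% ± 6.17 of those of HOCl mice (SD, n = 11 and 12; permutation test, two-sided, adjusted p 0.0046 over 6 measures). The size factor, which scales a library by its typical gene, was 1.23 ± 0.246 in control and 0.896 ± 0.218 in HOCl mice (SD, n = 11 and 12; permutation test, two-sided, adjusted p 0.0046). In 3 HOCl mice fewer genes reached 10 counts than in any control mouse, with means of 13450 and 12864 genes in control and HOCl mice (permutation test, two-sided, adjusted p 0.0091). Total counts (adjusted p 0.99) and the percent of counts in globin genes (0.191% and 0.179%, adjusted p 0.95) did not pass the same test.

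The choice of scaling therefore sets the zero of every comparison. On vst values, which use size factors, the log2 fold changes of the 10508 genes centred on -0.02 (median). On counts divided by the total count of each library it was -0.47, and fold changes on that scale are read against this shift. In bulk blood, fewer cells of a type and less RNA per cell cannot be told apart, and each difference below is a difference in the RNA of the whole sample.

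A gene was called when its Benjamini-Hochberg adjusted p was below 0.05 and its fold change above 1.3 in either direction. The limma test on vst values called 521 of 10508 genes (4.96%), of which 503 were higher (4.79%) and 18 lower (0.171%) in HOCl mice. With counts scaled by library totals the same test called 327 genes higher and 5134 lower, so the split between higher and lower genes belongs to the scaling. The edgeR quasi-likelihood test on the counts called 482 of 12949 genes (3.72%), with 424 higher (3.27%) and 58 lower (0.448%). Run on the vst genes alone, edgeR called 538 genes, and 427 of them were among the 521 that limma called. For genes and lists of the vst table, edgeR stands below for this second fit unless the fit on all counts is named. One library moved the edgeR count by more than 1.5 times: without Control replicate 12, the control mouse with the most red cell RNA, 775 genes were called. The number called lower was less steady. Leaving out 1 mouse gave 9 (without Control replicate 12) to 27 (without HOCl replicate 9) by limma, and 23 (without Control replicate 7) to 91 (without Control replicate 4) by edgeR on all counts.

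**Figure D1:**
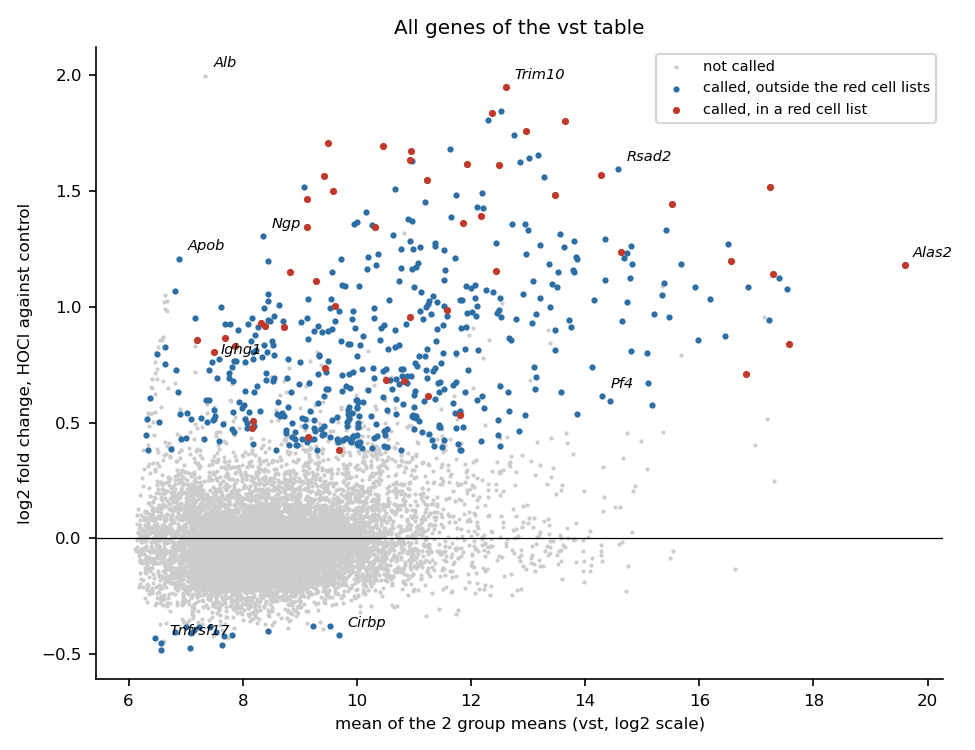
Each point is 1 gene of the vst table, with its mean level on the horizontal axis and the log2 fold change of HOCl against control mice on the vertical axis, both on the vst scale. Called genes lie mostly above 0, at 503 higher and 18 lower. That split turns to 327 higher and 5134 lower when counts are scaled by library totals. The red cell lists hold 77 genes, so most called genes had to lie outside them.

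In all, 4.79% of the 10508 genes were called higher. The 5 red cell lists hold 77 genes, so most of the 503 genes called higher had to lie outside them, and 453 did. To see how these genes move from mouse to mouse, each was correlated with the log2 red cell percent within the control mice and, separately, within the HOCl mice, so that the difference between the groups plays no part. The correlation was above 0.7 in both groups for 276 of the 453 genes (60.9%), against 400 of all 10508 genes (3.81%). Their median r was 0.78 in control mice and 0.88 in HOCl mice. Among the 18 genes called lower, 0 reached 0.7 in both groups. This is a description with genes that share libraries and are not independent of each other. Each r is on vst values, whose size factors tended to be smaller in mice with more red cell RNA. Control replicates 7 and 12 had 1.52 and 0.713, at 6.38% and 18.2%, and HOCl replicate 7 had 0.442 at 26.4%. On that scale a gene with a constant share of counts can climb with the red cell percent, and no r with library totals is given. The median r of all 10508 genes was -0.01 in control and -0.02 in HOCl mice. With the red cell percent added to the model as a covariate, limma called 0 genes (882 at an unadjusted p below 0.05) and edgeR called 0 (866 at an unadjusted p below 0.05). The fold changes by limma moved unevenly in that model. The median of the red cell membrane list went from 1.25 to 0.29 and Rsad2 from 1.59 to 0.28. For platelet genes the median went from 0.43 to 0.38, and Ighg1 went from 0.76 to 0.74. The percent itself differs between the groups, so a lost call there is not a lost difference. The part of the red cell percent in each gene's difference was not tested.

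The red cell lists themselves give the scale of this change. They were chosen with earlier results of these data known, so their numbers of called genes are a description and no test. Genes of the red cell membrane and skeleton were called higher in 18 of 22 cases, with a median log2 fold change of 1.25. For genes of reticulocyte maturation it was 14 of 16 with a median of 1.26, for heme synthesis and red cell iron 9 of 17 with a median of 0.59, and for erythroid regulators 8 of 12 with a median of 0.53. These 4 medians stayed positive with counts scaled by library totals, between 0.12 and 1.02. Of 7 globin genes, which the library preparation depletes, 1 was called (Hbq1b). Alas2, the first enzyme of heme synthesis in red cells, took 5.05% ± 1.59 of all counts in control mice and 7.96% ± 1.65 in HOCl mice (SD, n = 11 and 12). It is the gene whose share of counts differed most, and the 10 largest gains in mean share sum to 7.42% of counts.

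Outside these lists, genes with large rises included Cmas, Dhrs11, St3gal5, Prxl2a, Specc1, Tmcc2, Mpp1, Rsad2 and Tfdp2. Cmas (ENSMUSG00000030282, chr6:142702394-142721440 of GRCm39), which activates sialic acid for transfer to glycoproteins, had a lowest, median and highest level of 10.23, 11.48 and 13.04 in control mice and of 11.33, 13.32 and 15.55 in HOCl mice. It rose by 1.81 ± 0.34 (SE, limma, adjusted p 0.00392), and 8 of 11 HOCl mice lay above the control range. St3gal5, a sialyltransferase that makes the ganglioside GM3, rose by 1.68, and Mpp1, a membrane skeleton protein of red cells, rose by 1.62. In each of these genes the highest control mouse was Control replicate 12, the highest HOCl mouse was HOCl replicate 7 and the lowest was HOCl replicate 1, the same mice that stood at the ends of the red cell percent.

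The interferon lists split by gene. Of 32 type I interferon-stimulated genes, 7 were called higher and 0 lower, and the median log2 fold change was 0.17, which turned to -0.18 with library totals. By edgeR 7 were called higher and 1 lower, and with library totals limma called 6 higher and 8 lower. Rsad2 (ENSMUSG00000020641, chr12:26492745-26506451) encodes viperin, an antiviral enzyme. Control mice had vst levels from 12.01 to 15.12 with a median of 13.84, and HOCl mice from 13.90 to 16.87 with a median of 15.47. It rose by 1.59 ± 0.32 (SE, limma, adjusted p 0.00497), and 8 of the 11 HOCl mice exceeded the control range, while all 11 exceeded the control median. Isg15, a ubiquitin-like protein, rose by 1.49 (adjusted p 0.00606), from 10.85, 11.24 and 12.89 as the lowest, median and highest control levels to 11.43, 12.99 and 15.23 in HOCl mice. Oas3, which makes the messenger that activates RNase L, rose by 1.09 (adjusted p 0.00511), and Ube2l6, the enzyme that passes Isg15 to its targets, by 1.08 (adjusted p 0.0161). Further genes of the list, named after their values were seen, gave other values. Irf7, a transcription factor of the interferon response, rose by 1.04, while Ifit3 (-0.10), Mx1 (-0.12) and Ifi27l2a (0.03) were not called, with adjusted p of 0.754, 0.662 and 0.945. With library totals Ifi27l2a was called lower at -0.45, close to the shift of all genes.

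Rsad2 followed the red cell percent within each group. In control mice r was 0.95 (permutation test, two-sided, p 3e-05, adjusted 0.0002 over 20 relations, n = 11) and rho 0.87 (p 0.00083, adjusted 0.0033). In HOCl mice r was 0.92 (permutation test, two-sided, p 0.00015, adjusted 0.00037, n = 11) and rho 0.75 (p 0.0098, adjusted 0.016). Without the 2 mice farthest from the median red cell percent, Control replicates 2 and 7 or HOCl replicates 1 and 7, r was 0.87 and 0.74. So on vst values the mouse-to-mouse spread of this interferon gene ran along with red cell RNA in both groups. The part of red cell RNA in the group difference was not tested.

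Of 13 interferon gamma-induced GTPases, 1 was called higher, and the median was -0.01, or -0.49 with library totals. The called gene was Igtp, a GTPase that acts on vacuoles of intracellular parasites, at 0.48 ± 0.13 (SE, limma, adjusted p 0.0314). The vst level ran from 10.97 to 12.33 in control mice (median 11.55) and from 11.69 to 12.77 in HOCl mice (median 12.04). Within groups r with the red cell percent was 0.39 in control mice (permutation test, two-sided, p 0.24, adjusted 0.29, n = 11; rho 0.42, p 0.2, adjusted 0.29) and 0.78 in HOCl mice (permutation test, two-sided, p 0.0052, adjusted 0.008, n = 11; rho 0.68, p 0.025, adjusted 0.039). Without the 2 farthest mice it was 0.82 and 0.44, so neither value is steady. The gene was not called by edgeR (adjusted p 0.065), with library totals (0.01), or without any one of Control replicates 1, 2, 8, 9 and 10 and HOCl replicates 3 and 6. Antigen presentation gave 0 called genes of 10 in MHC class II (median -0.09) and 0 of 15 in MHC class I (median -0.03) by limma, with 1 and 4 at an unadjusted p below 0.05, and 0 in both by edgeR. With library totals these medians were -0.58 and -0.52, and 8 and 11 genes were called lower, where 5134 of 10503 genes were.

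Genes of the oxidant defence were called higher in 7 of 25 cases and lower in 0, with a median of 0.22, or -0.17 with library totals. Cat (ENSMUSG00000027187, chr2:103284194-103316185) encodes catalase, which breaks down hydrogen peroxide. Its lowest, median and highest levels were 11.29, 12.16 and 12.94 in control mice and 12.12, 13.43 and 14.99 in HOCl mice. It rose by 1.36 ± 0.24 (SE, limma, adjusted p 0.00354), and by 0.90 with library totals. All but 2 of the 11 HOCl mice lay above the control range, and HOCl replicate 1 fell below the control median. Gclm (ENSMUSG00000028124, chr3:122039126-122065061), the modifier subunit of the enzyme that starts glutathione synthesis, had levels of 10.63, 11.26 and 12.32 in control and 11.17, 12.30 and 13.61 in HOCl mice, in the same order. The rise was 1.03 ± 0.22 (SE, limma, adjusted p 0.00673), with 5 of 11 HOCl mice above the control range. Sod2, the mitochondrial superoxide dismutase, rose by 0.91, and Taldo1, an enzyme of the pentose phosphate pathway, by 0.74, though Taldo1 was not called with library totals (0.26). The other called genes of the list, named after their values were seen, were Gpx1 (1.27), Prdx2 (1.23) and Nqo1 (0.73), and Gpx1, which reduces peroxides with glutathione, was not called by edgeR or without any one of Control replicates 1, 7 and 8 and HOCl replicate 6.

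Catalase followed the red cell percent too. In control mice r was 0.92 (permutation test, two-sided, p 0.00012, adjusted 0.00037, n = 11) with a rho of 0.83 (p 0.0027, adjusted 0.006), and 0.88 without Control replicates 2 and 7. In HOCl mice r was 0.95 (permutation test, two-sided, p 5e-05, adjusted 0.00025, n = 11) with a rho of 0.85 (p 0.0016, adjusted 0.0041), and 0.87 without HOCl replicates 1 and 7. Stress lists that touch other compartments held no called gene by limma: 0 of 16 genes of endoplasmic reticulum stress (2 at an unadjusted p below 0.05, 1 called higher by edgeR, median -0.02) and 0 of 10 heat shock genes (1 at an unadjusted p below 0.05, 0 by edgeR, median 0.07, or -0.37 with library totals).

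**Figure D2:**
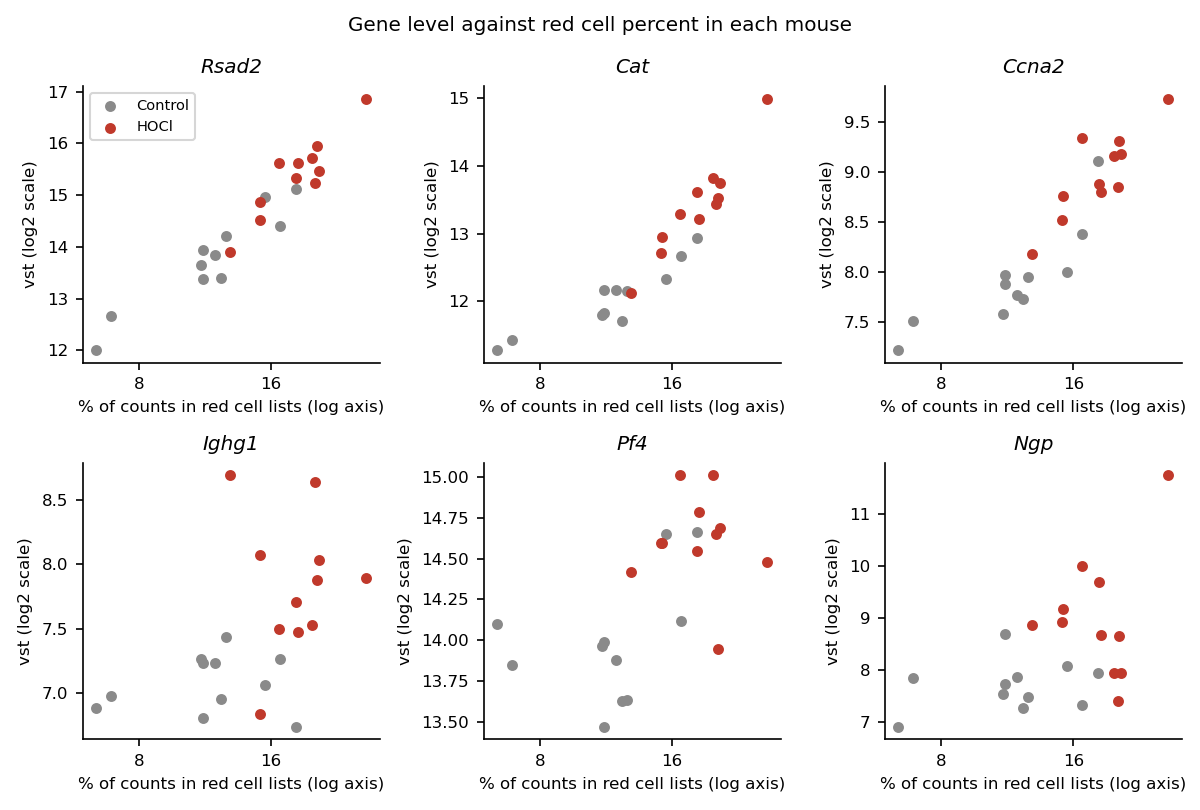
Each panel shows 1 gene, with the percent of a mouse's counts in the red cell lists on a log horizontal axis and the vst level on the vertical axis, and each point is 1 mouse, coloured by group. Rsad2 and Cat climb along the axis in both groups, with r from 0.92 to 0.95, while Ighg1 has an r of 0.15 in control and -0.02 in HOCl mice. Without the 2 farthest mice of each group the r of Ighg1 is -0.29 and 0.50, so neither value is steady.

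Autophagy genes, which clear organelles and proteins, held 12 of 28 called higher and 0 lower, with a median of 0.26 that turned to -0.10 with library totals. Sqstm1 (ENSMUSG00000015837, chr11:50089572-50107684) encodes p62, the receptor that brings ubiquitinated cargo to the autophagosome. Levels spanned 10.99 to 11.58 in control mice, with a median of 11.40, and 11.29 to 13.38 in HOCl mice, with a median of 12.15. The rise was 0.80 ± 0.16 (SE, limma, adjusted p 0.00434), and 10 of 11 HOCl mice lay above every control mouse, all but HOCl replicate 1. With library totals it was 0.34 and not called. Becn1 (0.95), Atg4a (1.36) and Tax1bp1 (0.95), which act in the start of autophagy, in the processing of Atg8 proteins and as a cargo receptor, were called on either scaling.

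Cell cycle genes were called higher in 7 of 18 cases and lower in 0, with a median of 0.11, or -0.17 with library totals. Ccna2 (ENSMUSG00000027715, chr3:36619014-36626299) encodes cyclin A2 of S phase and mitosis. Among control mice the level was 7.22 to 9.10 (median 7.88) and among HOCl mice 8.17 to 9.73 (median 8.88), a rise of 1.06 ± 0.18 (SE, limma, adjusted p 0.00354). All 11 HOCl mice exceeded the control median and 5 exceeded the control range. Mki67, the proliferation marker, rose by 0.92, Ccnb2, cyclin B2, by 0.77 and Ube2c, a ubiquitin-conjugating enzyme of mitotic exit, by 1.39. For the genes Ccna2, Psmd4 (a proteasome subunit, 0.80), Sqstm1 and Atp5b (a subunit of ATP synthase, 0.81), r with the red cell percent was between 0.82 and 0.98 in both groups (n = 11 each), with permutation tests, two-sided, at adjusted p of at most 0.0021, and rho was between 0.75 and 0.95, with adjusted p of at most 0.016. Without the 2 farthest mice r was lowest for Ccna2 in HOCl mice, at 0.56, from 0.85. These r too are on vst values, whose size factors tended to be smaller in mice with more red cell RNA. Among lists of basic machinery, limma called 1 of 31 proteasome genes (median -0.04), 4 higher and 1 lower of 79 nuclear genes of oxidative phosphorylation (median 0.11, or -0.32 with library totals), and 0 of 81 cytosolic ribosomal protein genes (median -0.02, 8 at an unadjusted p below 0.05, 0 by edgeR). With library totals the proteasome and ribosomal medians were -0.52 and -0.50. On that scale 24 proteasome, 31 oxidative phosphorylation and 59 ribosomal genes were called lower, where 5134 of 10503 genes were.

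Some called genes had a weak r with the red cell percent in both groups. With 11 mice in each group, a weak r does not show that a relation is absent. Of the 503 genes called higher, 13 had an r between -0.3 and 0.3 with the red cell percent in both groups, and of the 18 called lower, 6 did, against 3719 of all 10508 genes (35.4%). Among the 13 are Ighg1 and Ngp, described next. Apob, Cyp4a14 and Hpd, genes expressed in liver, are given below with the HOCl mice that held liver RNA. The control medians of these liver genes lay at the lowest vst value, 6.06, so their r in control mice says little.

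Ighg1 (ENSMUSG00000076614, chr12:113288860-113294143) encodes the constant region of immunoglobulin G1, made by B cells and plasma cells that have switched class. Its lowest, median and highest levels were 6.74, 7.06 and 7.44 in control mice and 6.84, 7.87 and 8.69 in HOCl mice. In counts the medians were 45 and 100.5. It rose by 0.76 ± 0.16 (SE, limma, adjusted p 0.00562), by 1.91 in edgeR (adjusted p 0.00151) and by 0.98 with library totals. The groups nearly separated: 10 of 11 HOCl mice lay above every control mouse, and the exception was HOCl replicate 12. HOCl replicate 1, the HOCl mouse with the least red cell RNA, had the highest level. In control mice r with the red cell percent was 0.15 (permutation test, two-sided, p 0.66, adjusted 0.74, n = 11) with a rho of 0.10 (p 0.78, adjusted 0.91), and -0.29 without Control replicates 2 and 7. In HOCl mice r was -0.02 (permutation test, two-sided, p 0.94, adjusted 0.94, n = 11) with a rho of 0.04 (p 0.92, adjusted 0.99), and 0.50 without HOCl replicates 1 and 7.

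No other gene of the plasma cell list was called higher. It has 14 genes, with a median of -0.11, or -0.59 with library totals. Igha, the constant region of immunoglobulin A, had a log2 fold change of 0.06 (adjusted p 0.903), and Jchain, which joins immunoglobulin A and M units, -0.26 (adjusted p 0.441); both were named after their values were seen. Tnfrsf17 (ENSMUSG00000022496, chr16:11118528-11137938) encodes BCMA, a survival receptor of plasma cells, and fell. Its lowest, median and highest levels were 6.50, 6.81 and 7.02 in control mice and 6.06, 6.32 and 6.87 in HOCl mice, near the lowest value of the vst table, 6.06. The log2 fold change was -0.45 ± 0.11 (SE, limma, adjusted p 0.0111), and 8 of 11 HOCl mice lay below the control range. The median counts behind it were 23 and 2, and edgeR did not call it (adjusted p 0.2).

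Granule genes of neutrophil precursors, transcribed in the bone marrow before neutrophils mature, were called higher in 3 of 8 cases, with a median of 0.52, or 0.09 with library totals. Camp (ENSMUSG00000038357, chr9:109676442-109678685) encodes the antimicrobial peptide cathelicidin. The lowest, median and highest levels were 6.06, 6.64 and 7.33 in control mice and 6.84, 7.47 and 9.70 in HOCl mice. It rose by 0.95 ± 0.24 (SE, limma, adjusted p 0.0157), with 8 of 11 HOCl mice above the control range and median counts of 15 and 66.5. Ngp (ENSMUSG00000032484, chr9:110248815-110252086), a protein of specific granules, had levels of 6.92, 7.74 and 8.69 in control and 7.41, 8.87 and 11.75 in HOCl mice, and rose by 1.304 ± 0.34 (SE, limma, adjusted p 0.0201). The HOCl mice spread widely, from HOCl replicate 4 at the low end to HOCl replicate 7 far above the rest of both groups. Ltf, lactoferrin, rose by 0.92 (adjusted p 0.0185), and HOCl replicate 7 was highest again. All 3 genes stayed called when any single mouse was left out, when library totals were used and in edgeR.

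Genes of mature neutrophils did not pass the test: limma called 0 of 13 (2 at an unadjusted p below 0.05, 0 by edgeR), although 12 of them had a positive log2 fold change. The median was 0.25 and turned to -0.12 with library totals, which is above the shift of all genes. S100a9, a subunit of calprotectin and the most abundant gene of the list per length, had a log2 fold change of 0.30 ± 0.25 (SE, adjusted p 0.576). Per 100 counts of 20 leukocyte-wide genes, mature neutrophil genes held a median of 59.5 counts in control and 63 in HOCl mice, and the granule genes of precursors 2.07 and 2.74. For Camp, r with the red cell percent was 0.42 in control mice (permutation test, two-sided, p 0.2, adjusted 0.26, n = 11) with a rho of 0.15 (p 0.66, adjusted 0.82). In HOCl mice it was 0.49 (permutation test, two-sided, p 0.14, adjusted 0.2, n = 11) with a rho of 0.00 (p 0.99, adjusted 0.99), and it turned to -0.49 without HOCl replicates 1 and 7, so it rests on those mice. Without Control replicates 2 and 7 the control value was 0.27.

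Platelet genes were called higher in 8 of 18 cases by limma, 6 by edgeR on the vst genes and 3 by edgeR on all counts (Pf4, Vwf and Gp9), and all 18 log2 fold changes were positive, with a median of 0.43. With counts scaled by leukocyte genes 4 were called. With library totals the median was 0.02, above the shift of all genes, and 0 platelet genes were called higher on that scale. Pf4 (ENSMUSG00000029373, chr5:90918479-90922110) encodes platelet factor 4, a chemokine stored in alpha granules. Its lowest, median and highest levels were 13.48, 13.97 and 14.66 in control mice and 13.95, 14.59 and 15.01 in HOCl mice, a rise of 0.61 ± 0.14 (SE, limma, adjusted p 0.00786) that was 0.13 with library totals. The groups overlapped, with 4 of 11 HOCl mice above the control range, and HOCl replicate 9 was the highest. Vwf, the von Willebrand factor made by megakaryocytes and endothelium, rose by 0.70, and Gp9, a subunit of its receptor on platelets, by 0.63. The summed share of counts of the list overlapped widely, with medians of 0.897% in control and 1.06% in HOCl mice, while per 100 leukocyte counts it had medians of 85.9 and 142. In control mice r of Pf4 with the red cell percent was 0.41 (permutation test, two-sided, p 0.21, adjusted 0.26, n = 11) with a rho of 0.36 (p 0.27, adjusted 0.36), and 0.77 without Control replicates 2 and 7. In HOCl mice r was -0.07 (permutation test, two-sided, p 0.85, adjusted 0.89, n = 11) with a rho of 0.00 (p 0.99, adjusted 0.99), and -0.17 without HOCl replicates 1 and 7.

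**Figure D3:**
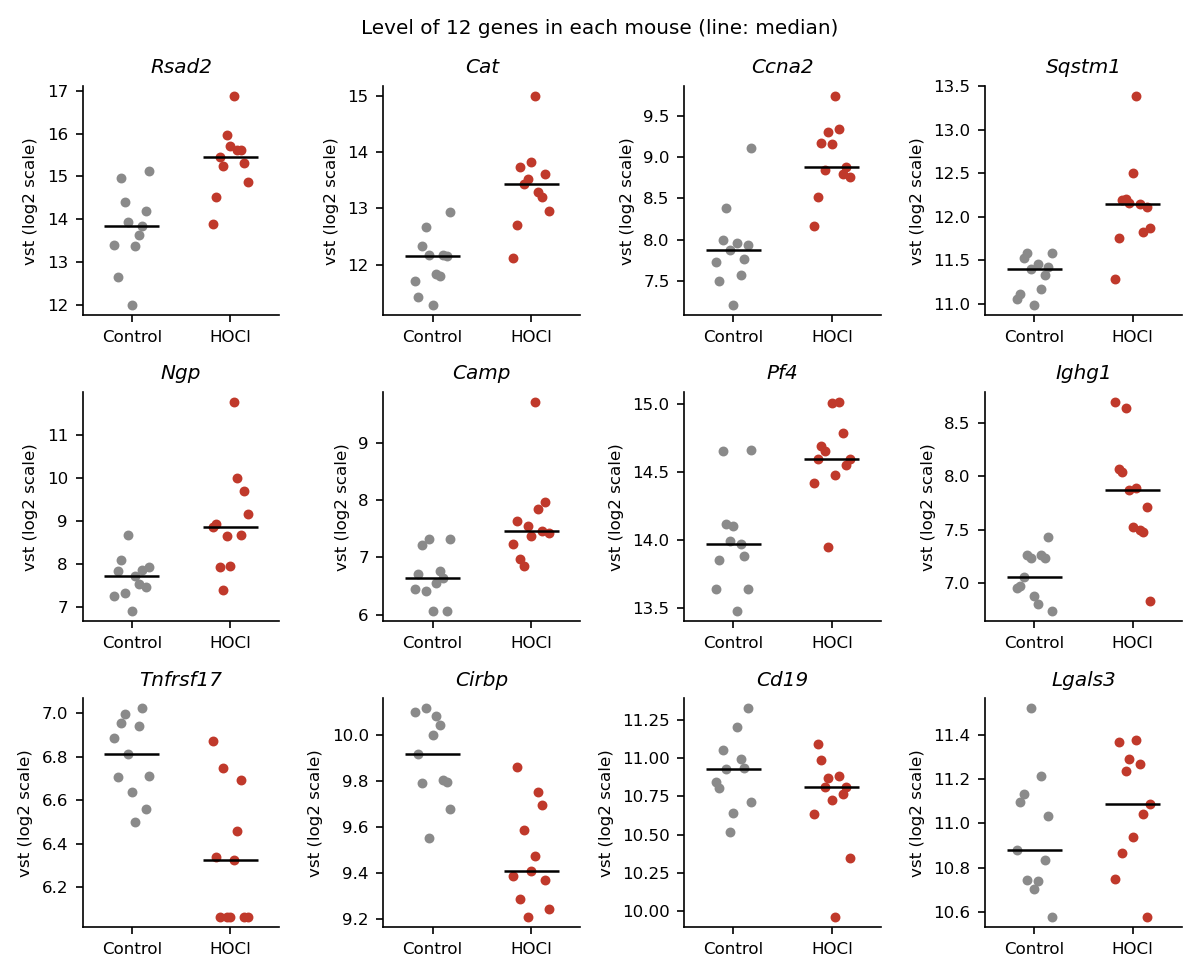
Each panel shows the vst level of 1 gene in every mouse, control and HOCl mice side by side, with a line at the group median, for 12 genes in 11 mice of each group. Ighg1 and Sqstm1 nearly separate the groups, as all but 1 HOCl mouse exceed the control range, and the highest HOCl mouse of Ngp and Camp stands far above the rest.

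Lymphocyte genes gave small values, most of them negative, where 4767 of all 10508 genes (45.4%) were positive. Of 22 T cell genes limma called 0 (5 at an unadjusted p below 0.05, 0 by edgeR), with 1 positive and a median of -0.12. Of 16 B cell genes it called 0 (1 at an unadjusted p below 0.05, 0 by edgeR), with 1 positive and a median of -0.16, and of 14 genes of NK and cytotoxic cells 0 (6, and 0 by edgeR), with 3 positive and a median of -0.12. With library totals the medians were -0.61, -0.65 and -0.62, against -0.47 for all genes, and 20, 13 and 9 genes were called lower on that scale, where 5134 of 10503 genes were. Trbc2, a T cell receptor constant gene and the most abundant T cell gene per length, had levels of 11.87, 12.18 and 12.76 as the lowest, median and highest of control mice and 11.65, 11.95 and 12.17 of HOCl mice. All 11 HOCl mice lay below the control median, but the log2 fold change of -0.23 ± 0.09 did not pass (SE, limma, adjusted p 0.156). The granzyme Gzma of cytotoxic cells came to -0.33 (adjusted p 0.0962), and without Control replicate 4 it was called.

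The remaining lists of blood cells held no gene called by limma or edgeR. For monocytes it was 0 of 16 (4 at an unadjusted p below 0.05, median -0.02), for eosinophils 0 of 7 (2, median 0.11), for basophils 0 of 6 (2, median 0.18), for dendritic cells 0 of 6 (0, median -0.13) and for leukocyte-wide genes 0 of 20 (2, median 0.01). With library totals these 5 medians were between -0.64 and -0.09, so those above 0 turned negative. Ccr2, the receptor that brings monocytes into tissue, had -0.33 ± 0.12 (SE, limma, adjusted p 0.135), and 4 of 11 HOCl mice lay below the control range. Lists of signalling gave 0 called by limma for inflammasome and cytokine genes (of 16, 2 at an unadjusted p below 0.05, median -0.05), TGF-beta genes (of 16, 3, median -0.09), chemokine receptors (of 16, 2, median 0.00), immediate early genes (of 14, 3, median 0.07) and the circadian clock (of 9, 2, median -0.06). In these 5 lists edgeR called 0 genes higher and 1 lower, a TGF-beta gene, and the medians were between -0.58 and -0.39 with library totals. On that scale limma called 1 chemokine receptor gene higher. It called 4 to 13 genes of each list lower, where 5134 of 10503 genes were. Of 6 galectin genes 0 were called by limma (1 at an unadjusted p below 0.05, 0 by edgeR, median 0.09, or -0.33 with library totals). Lgals3 encodes galectin-3, the protein that antibodies given to other mice of the study are directed at. Its lowest, median and highest levels were 10.58, 10.88 and 11.52 in control mice and 10.58, 11.09 and 11.38 in HOCl mice, with a log2 fold change of 0.12 ± 0.11 (SE, limma, adjusted p 0.634), and no HOCl mouse lay outside the control range.

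**Figure D4:**
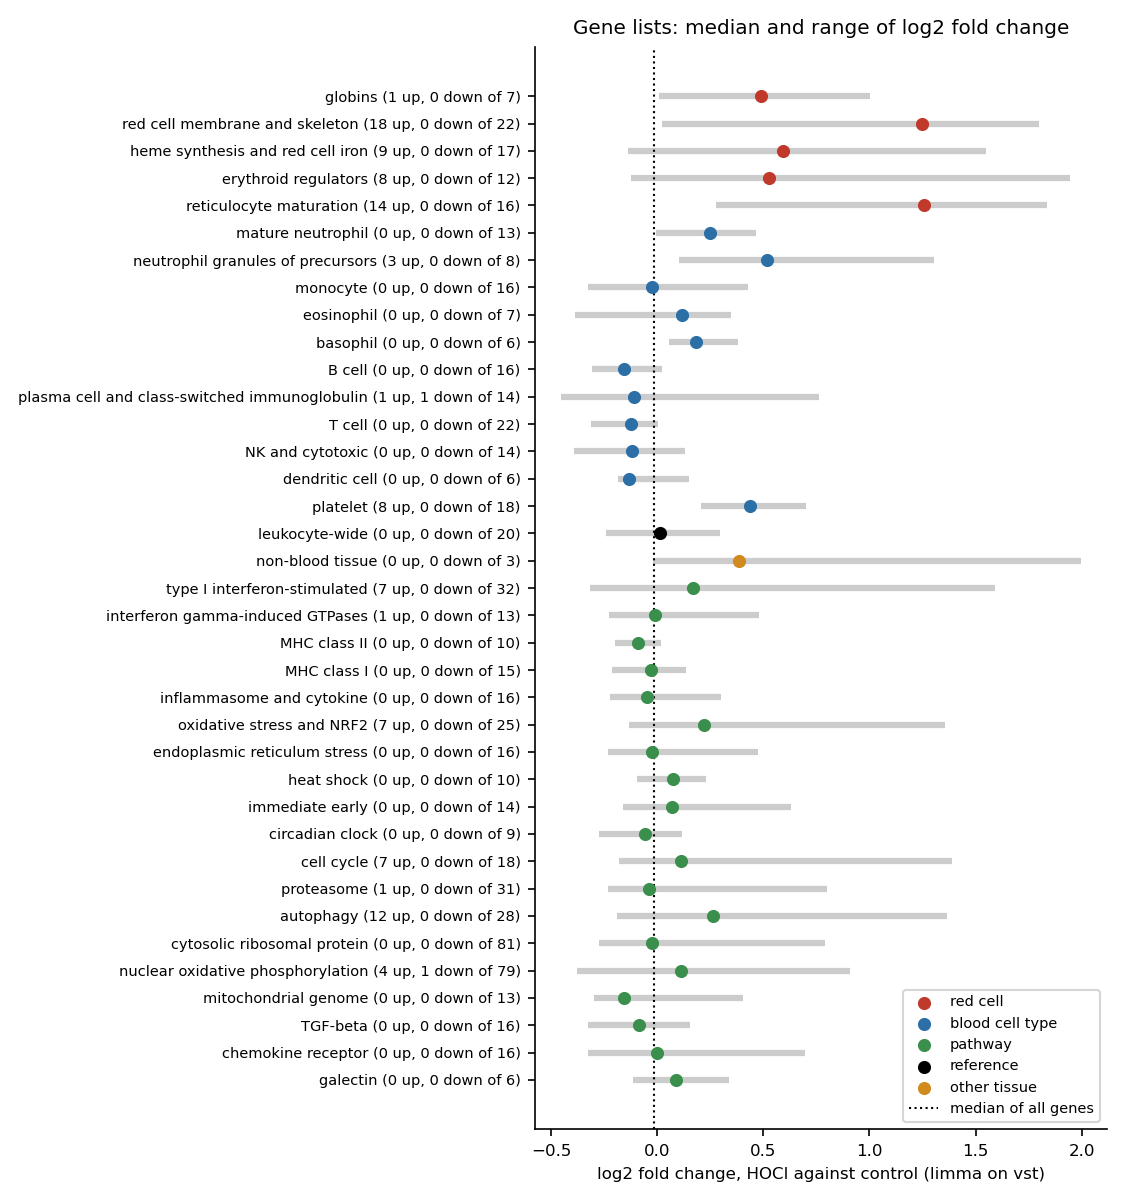
Each line is 1 of the 37 gene lists, with a point at the median log2 fold change of its genes on the vst scale, a bar from the lowest to the highest gene and the number of genes called in each direction. With library totals every median is lower, and of those above 0 only the red cell, precursor granule, platelet and non-blood lists stay above it.

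Few genes were called lower by limma, and their fold changes were small on the vst scale. Cirbp (ENSMUSG00000045193, chr10:79997069-80008626) encodes an RNA-binding protein induced by cold. In control mice the lowest, median and highest levels were 9.55, 9.92 and 10.11, in HOCl mice 9.21, 9.41 and 9.86, and the log2 fold change was -0.42 ± 0.09 (SE, limma, adjusted p 0.00658). All 11 HOCl mice lay below the control median and 7 below the control range. Cacna2d4, an auxiliary calcium channel subunit, came to -0.42 ± 0.08 (SE, limma, adjusted p 0.00518), with 9 of 11 HOCl mice below the control range. Both were also called lower by edgeR, at -0.45 and -0.70. Klrc1, an inhibitory receptor of NK and cytotoxic T cells known as NKG2A, came to -0.46 (adjusted p 0.0172), and Trbv4, a T cell receptor variable gene, to -0.43 (adjusted p 0.00738). Neither passed in edgeR, with adjusted p of 0.0557 and 0.0649, and the median counts of Trbv4 were 17 in control and 0 in HOCl mice. Ndufb5, a subunit of respiratory complex I, came to -0.38 ± 0.08 (SE, limma, adjusted p 0.00791), at the edge of the 1.3-fold threshold. Cym (-0.48), AU041133 (-0.47), Zfp182 (-0.42), Zfp40 (-0.41) and Mbip (-0.41) were, with Tnfrsf17, Cirbp, Cacna2d4, Klrc1 and Trbv4, the 10 largest falls on the vst scale. On counts the falls were larger, and edgeR called Cym (-2.40), AU041133 (-1.47) and Zfp182 (-0.86) lower too, with median counts of 26, 78 and 153 in control and 1.5, 20.5 and 66 in HOCl mice. The calls of Zfp182, Zfp40, Ndufb5 and Mbip were lost on leaving out any one of 2, 5, 10 and 16 of the 22 mice, Control replicates 9 and 12 among them in each case.

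The percent of counts in the 13 protein-coding genes of the mitochondrial genome was lower in HOCl mice, at 1.77% ± 0.175 against 2.22% ± 0.301 (SD, n = 12 and 11; permutation test, two-sided, adjusted p 0.0016 over 6 measures), and 4 of 12 HOCl mice lay below the control range. Mitochondrial ribosomal RNA did not share this fall, with means of 5.42% ± 1.09 in control and 6.06% ± 0.629 in HOCl mice (SD, n = 11 and 12), and this sum was not tested. Of its genes, mt-Rnr2 had a log2 fold change of 0.60 ± 0.21 and was not called (SE, edgeR on all counts, adjusted p 0.119), though it was called without Control replicate 12 and by DESeq2. On the vst scale limma called 0 of the 13 protein-coding genes (2 at an unadjusted p below 0.05, 0 by edgeR), with a median of -0.16, or -0.63 with library totals. A fall in the share of counts is thus not matched by a called gene on the size factor scale. The share of a typical gene was lower too, with a median of -0.47 for all genes with library totals. On vst values 3 of the 13 genes were positive. Among them was mt-Co1, the most abundant per length, at 0.30 to 0.52 with each mouse left out in turn, and 1 of those fits called it. Among single genes, the elongation factor Eef1a1 lost the most, from a mean of 0.968% ± 0.172 to 0.645% ± 0.154 of counts (SD, n = 11 and 12), and the 10 largest losses sum to -1.24% of counts.

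Of the 12949 genes tested on counts, 2730 are absent from the vst table. Here edgeR called 28 (1.03%), with 25 higher (0.916%) and 3 lower (0.11%). Pir (ENSMUSG00000031379, chrX:163052272-163156008) encodes pirin, an iron-binding nuclear protein whose gene is a known NRF2 target. The raw count was 0 to 41 in control mice, with a median of 11, and 9 to 108 in HOCl mice, with a median of 45.5. The log2 fold change was 2.39 ± 0.51 (SE, edgeR, adjusted p 0.00682), and 10 of 12 HOCl mice lay above the control range in CPM, counts scaled to library size, with TMM factors. Sox6, a transcription factor of red cell maturation, had lowest, median and highest counts of 19, 77 and 113 in control and 92, 139 and 275 in HOCl mice and rose by 1.55 (adjusted p 0.00547). The noncoding RNA Redrum, known from red cell development, rose by 1.50 (adjusted p 0.00299), with all 12 HOCl mice above the control median. Further rises were Reln (1.49), Mical3 (1.37), Osbpl1a (1.31), Usp54 (1.12) and the ubiquitin pseudogene Ubb-ps (0.96). Among the genes lower, H2-T-ps, a pseudogene of the MHC class I region, fell by 0.91 on the log2 scale (SE 0.25, edgeR, adjusted p 0.0345), from median counts of 102 to 44.5. That call was lost without any one of Control replicates 1, 2, 7 and 8 and HOCl replicates 5, 7 and 10.

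Some libraries held RNA that blood cells do not make. A look at the genes with the widest spread, after their values were seen, showed Alb, which encodes serum albumin and is made by hepatocytes. Its count was 0 to 13 in control mice, with a median of 4. In HOCl mice replicates 2, 3, 5, 8, 10 and 11 it was 1964, 2171, 1531, 1996, 2071 and 681, and in the other 6 HOCl mice it was 1 to 4. A list of 20 hepatocyte transcripts, also drawn up after the values were seen, held 0 to 6.30 CPM in control mice (median 2.40). It held 133 to 572 in those 6 HOCl mice and at most 5.86 in the other 6. The HOCl mice thus fall into a pair of sets with no value between them, and both sets overlap in red cell percent, at 15.1% to 20.6% and 12.9% to 26.4%.

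On the vst scale Alb had lowest, median and highest levels of 6.06, 6.38 and 6.63 in control mice and 6.24, 6.39 and 11.42 in HOCl mice. Its log2 fold change of 2.00 ± 0.63 was the largest of all genes and did not pass (SE, limma, adjusted p 0.0577), while edgeR on the vst genes called it. In the fit on all counts it was not tested, as too few mice reached 10 counts. Without any one of HOCl replicates 1, 4, 6, 7, 9 and 12, the mice low in Alb, limma called it too. All 20 hepatocyte transcripts had positive log2 fold changes with a median of 0.81, and 3 were called higher: Apob, the apolipoprotein of lipoprotein particles, at 1.21, Cyp2e1 and the transport protein Ttr. Other called genes of this kind were Mug1 (0.83), Cyp4a14 (0.75), Fabp1 (0.61), Rbp4 (0.51) and Hpd (0.448). The calls of Apob, Ttr, Mug1, Cyp4a14, Fabp1 and Rbp4 sit near the threshold, and each was lost without any one of HOCl replicates 2, 3, 5 and 10, among other mice. With the mice above 100 Alb counts left out the median of the list was -0.02. Those mice were left out for their liver RNA, so smaller values of liver genes without them follow from that choice.

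Without these mice the differences of called liver genes shrank, to 0.18 for Apob, 0.20 for Mug1, 0.21 for Cyp4a14, 0.09 for Fabp1, 0.07 for Rbp4 and 0.0470 for Hpd. For Cyp2e1 and Ttr they came to 0.36 and 0.03. With the 6 left out, a choice made after seeing the data that leaves 6 HOCl mice, limma called 0 genes (1732 at an unadjusted p below 0.05, against 1885 with all mice), and edgeR called 217, of which 194 were among its 482. The median log2 fold change of the 503 genes called higher was 0.79 with all mice and 0.81 with those mice left out, and all 503 stayed positive. The 18 genes called lower all stayed negative. Ighg1 came to 0.77, Camp to 1.05, Pf4 to 0.70, Rsad2 to 1.59 and Cirbp to -0.42 with those mice left out, against 0.76, 0.95, 0.61, 1.59 and -0.42 with them. Of a short list of genes from other tissues, with Alb among its 3 genes in the vst table, limma called 0 (2 at an unadjusted p below 0.05, 1 by edgeR on the vst genes, Alb, and 0 of 4 tested by edgeR on all counts). In that list Sftpa1 and Sftpc, surfactant genes of the lung, were at 0 in all 23 mice. Where the hepatocyte RNA came from was not tested.

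**Figure D5:**
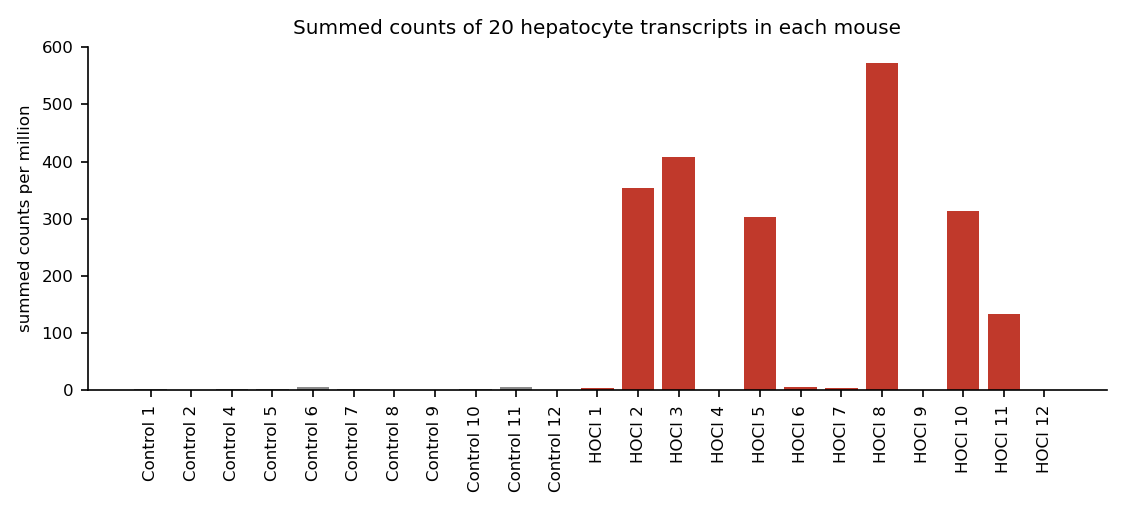
Each bar is 1 mouse and shows the summed CPM of 20 hepatocyte transcripts, control mice first. In HOCl replicates 2, 3, 5, 8, 10 and 11 the sum is 133 to 572, and in every other mouse it is at most 6.30.

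Promoters of the called genes were searched for 3 motifs on both strands, in the 300 bases around the start of each gene, most of them before it, taking the first promoter listed for a gene (RefSeq, GRCm38.p6). Of the 10508 genes, 8256 have a promoter in the table, and so do 401 of the 503 called higher and 13 of the 18 called lower. The GATA motif AGATAA, which GATA factors of red cell and platelet precursors bind, was in 6.69% of all promoters and in 10.2% of those called higher (41 of 401). Outside the red cell lists it was in 9.02% (33 of 366), and of the genes called lower 0 held it. The CACC box CCACACCC, bound by KLF1, was in 3.97% of all and 3.24% of those called higher. The core of the antioxidant response element, TGACNNNGC, to which NRF2 binds, was in 15.2% of all and 15.7% of those called higher, and in 15.4% of those called lower (2 of 13). Matches to different motifs shared a base in at most 2 of all promoters and in 0 of those called. A match is a description of letters and not a site of binding. The sequences are shown for the gene with the largest rise in a red cell list (Trim10), a top riser outside them (Mpp1), a platelet gene (Pf4) and oxidant defence genes (Gclm, Pir), each on its own strand, with the motif in capitals. Trim10 is at chr17:36869324-36869623 on the plus strand, Mpp1 at chrX:75130967-75131266 on the minus strand, Pf4 at chr5:90772185-90772484, Gclm at chr3:122245307-122245606 and Pir at chrX:164269181-164269480 on the plus strand. Trim10, Mpp1 and Pf4 hold 1 GATA motif each, Gclm holds 1 core of the antioxidant response element and Pir holds 2.
Trim10: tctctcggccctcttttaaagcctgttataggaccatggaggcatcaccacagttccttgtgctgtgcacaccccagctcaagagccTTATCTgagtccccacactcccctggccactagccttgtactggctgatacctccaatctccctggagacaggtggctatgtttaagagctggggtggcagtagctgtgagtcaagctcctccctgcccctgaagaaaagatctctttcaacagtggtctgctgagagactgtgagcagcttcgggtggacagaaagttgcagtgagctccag
Mpp1: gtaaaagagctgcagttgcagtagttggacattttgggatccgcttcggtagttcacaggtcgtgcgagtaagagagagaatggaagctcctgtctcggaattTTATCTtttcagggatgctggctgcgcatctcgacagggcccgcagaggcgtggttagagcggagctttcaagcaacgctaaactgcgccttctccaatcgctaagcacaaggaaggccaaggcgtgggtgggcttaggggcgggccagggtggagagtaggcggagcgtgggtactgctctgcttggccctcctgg
Pf4: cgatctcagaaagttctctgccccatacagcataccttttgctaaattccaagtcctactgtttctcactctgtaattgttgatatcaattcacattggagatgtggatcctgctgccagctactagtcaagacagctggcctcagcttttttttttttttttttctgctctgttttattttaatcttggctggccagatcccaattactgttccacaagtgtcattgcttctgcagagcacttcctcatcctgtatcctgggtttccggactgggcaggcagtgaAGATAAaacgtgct
Gclm: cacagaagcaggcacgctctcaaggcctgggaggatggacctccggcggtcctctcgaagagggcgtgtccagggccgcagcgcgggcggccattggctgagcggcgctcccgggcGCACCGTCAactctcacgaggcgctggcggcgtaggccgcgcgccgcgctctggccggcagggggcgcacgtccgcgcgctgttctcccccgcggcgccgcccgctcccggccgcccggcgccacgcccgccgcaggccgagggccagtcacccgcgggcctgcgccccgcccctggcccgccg
Pir: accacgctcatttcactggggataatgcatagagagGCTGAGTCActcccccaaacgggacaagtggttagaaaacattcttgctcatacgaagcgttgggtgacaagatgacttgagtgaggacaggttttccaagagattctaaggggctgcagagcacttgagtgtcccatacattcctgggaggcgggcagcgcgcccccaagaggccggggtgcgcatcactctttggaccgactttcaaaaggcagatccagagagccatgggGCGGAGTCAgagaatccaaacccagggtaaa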

How the data were processed

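Whole blood of 23 mice was measured by RNA sequencing. According to the study's methods and the labels, the authors checked reads with FastQC, trimmed them with Cutadapt, aligned them to mm39 with STAR, handled alignments with SAMtools and Picard and deposited raw read counts per gene from featureCounts for 71 mice and 55416 genes; versions of Cutadapt, STAR, SAMtools, Picard and featureCounts and the annotation release are not given in the sources used here. A table of log2-like vst values, made with DESeq2, was deposited as well, for 70 mice and 10508 genes, after leaving out, by the study's account, genes that do not code for proteins or are lowly expressed; immunoglobulin and T cell receptor segments are in it. The lowest value of that table is 6.06, which genes with few counts share.

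Total counts were 11932855 to 15861471 per mouse, and at these depths differences in genes with a few counts may be missed.

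HOCl mice were compared with control mice by limma 3.58.1 on vst values and edgeR 4.0.16 (quasi-likelihood, TMM factors) on counts of genes with at least 10 counts in at least 11 mice, in R 4.3.3. Called genes had a Benjamini-Hochberg adjusted p below 0.05, over all genes tested, and a fold change above 1.3. DESeq2 1.42.0, edgeR on the vst genes, and limma on log2 CPM (pseudocount 1) scaled by library totals or by 20 leukocyte genes were alternatives, as were the filter, the model, a red cell covariate, a replicate block and leaving out mice. Single measures were compared by permutation tests with 100000 resamples in Python 3.11.15 with scipy 1.17.1. The procedures were tested on simulated data.

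Of the vst genes, 10503 were paired with 1 gene of the count table by symbol and 5 were not. Coordinates and identifiers are those of GENCODE vM39 (GRCm39). Genes were counted in 37 lists, 5 of them of red cell genes. List members and lists were chosen with earlier results of these data known, and the hepatocyte list and the setting without mice high in Alb were added after seeing the data. Named genes were drawn by a rule, and not every gene it picks is described: the 10 largest rises and falls on vst values outside the red cell lists and 5 within them, the 8 largest each way among genes absent from the vst table (predicted genes left out), up to 4 called genes of each list with the smallest adjusted p or its 2 most abundant genes, the 10 largest gains and losses in share of counts, and Lgals3. Others are said to be chosen after their values were seen.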

Additional observations from a re-analysis of the deposited data

How the results depend on the processing

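The count of called genes was 521 by limma on vst values and 482 by edgeR on counts. It stayed within 1.5 times of these with leukocyte-gene scaling (362), edgeR (538) or DESeq2 (668) on the vst genes, all 6 groups in 1 fit (511), trend and robust variances (460) and no fold threshold (615), and, for the counts, with another expression filter (482), median-of-ratios factors (503) and DESeq2 (678).

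Scaling by library totals gave 5461 called genes by limma and 5404 by edgeR, most of them lower, since it centres the fold changes on -0.47 and -0.49 (median, log2). No filter on low counts gave 812, with 26190 genes tested. With red cell percent as a covariate limma called 0 genes (882 at an unadjusted p below 0.05) and edgeR 0 (866 at an unadjusted p below 0.05). With the HOCl mice above 100 Alb counts left out, an alternative chosen after seeing the data, limma called 0 (1732 at an unadjusted p below 0.05) and edgeR 217, with fewer mice in the fit. Leaving out each mouse in turn gave 380 to 676 genes by limma and 348 to 775 by edgeR, the last without Control replicate 12.

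GEO's labels number the mice of each group alike. A fit with these numbers as a replicate block called 85 genes by limma and 316 by edgeR. The numbers name different animals: over 10 pairs with vst values, the correlation of a pair's residuals ran from -0.36 to 0.30 with a mean of 0.05, it exceeded 0.1 in 4, and 3 of 20 mice were most like the mouse with their own number. The block results are therefore no paired result. Apart from the library totals and the fewer mice, the cause of these moves was not tested.

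A named gene is counted as reversed when its sign changed and it was called with or without the alternative. Genes called in neither fit also changed sign in places and are counted as keeping their side. Of 169 named genes, 4 reversed with library totals: Ccl5 (-0.45), Arhgdib (-0.42), Hspa8 (-0.46) and Ifi27l2a (-0.45), all near the shift of all genes, and each called only with library totals. With the red cell covariate 8 genes called on vst values reversed, none of them called in that fit: Hbq1b (-0.0220), Fech (-0.0229), Ube2l6 (-0.0804), Mkrn1 (-0.0405), Ftl1 (-0.0915), Slc25a39 (-0.0145), Isg20 (-0.0910) and Prdx2 (-0.0329); the cause was not tested. A further 99 kept their direction with the covariate and were no longer called, and 62 kept their side of the threshold. Among genes no longer called, Ighg1 went from 0.76 to 0.74, Ltf from 0.92 to 0.85 and Tnfrsf17 from -0.45 to -0.46. Alas2 went from 1.18 to 0.01 and Rsad2 from 1.59 to 0.28. Of the named genes with vst values, 103 kept it with library totals, 138 with leukocyte-gene scaling, 141 with edgeR on the vst genes and 150 with DESeq2. Leaving out single mice ended the call of 23 named genes and brought 9 over the threshold, and reversed no called gene. The 6 differences in library make-up kept their direction or their side of the threshold when each mouse was left out.

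The cage, the buffer and HOCl cannot be told apart in these groups. Blood counts were not available, so changes in cell numbers and in RNA per cell cannot be told apart. A p that misses the threshold does not show that a gene did not differ. The vst table ends at a lowest value that genes with few counts share, and fold changes of such genes on that scale are smaller than on counts, as for Ighg1 (0.76 by limma, and 1.91 by edgeR on the vst genes). HOCl replicate 8 enters only the counts.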

Other observations

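The other 48 mice of the study had HOCl and 1 of 4 further treatments, labelled BPR21, D06, D11 and E07, with 12 mice each. They enter no comparison here, and their levels are given as values. The median vst level of Ighg1 was 7.41, 7.59, 7.65 and 7.66 in these groups in that order, against 7.06 in control and 7.87 in HOCl mice. For Ngp the medians were 7.75, 8.87, 8.24 and 8.30, and for Pf4 14.77, 14.95, 14.59 and 14.17. For Cirbp they were 9.32, 9.32, 9.41 and 9.98, with 9.92 in control and 9.41 in HOCl mice. Hepatocyte transcripts were present there too: Alb was above 100 counts in 4, 2, 2 and 3 of 12 mice, with highest counts of 5902, 3503, 1774 and 10286.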
